A study of Homo sapiens with 24 samples.

Results

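MHC class I and its peptide loading machinery were followed here through 9 genes of the 23595 listed in each deposited table. They were chosen by name, as the rows for the heavy chains HLA-B, HLA-C, HLA-E and HLA-F, the light chain B2M, the loading genes TAP1, TAP2 and TAPBP, and the transactivator NLRC5. Of the 9, 8 reached a group mean of 1 FPKM somewhere in the fit and were tested, and HLA-F stayed below it. FPKM are sequenced fragments scaled to the length of the transcript and to the fragments of the library, so they can be compared between genes of different length. The data are mRNA levels from 24 libraries of 2 human acute myeloid leukaemia (AML) cell lines, U937, a line of monocytic character, and IMS-M2. Each line was grown without folic acid (-FA) or with it (+FA), and each culture condition was treated with OTX or with the solvent DMSO, which gives 8 groups of 3 libraries. OTX is read here, from knowledge of the study rather than the labels, as birabresib, a small molecule that blocks the acetyl-lysine pockets of BET bromodomain proteins. The labels give neither its dose nor its duration, and leave unsaid whether a group's 3 libraries were separate cultures, so p-values measure only the spread between libraries. The question set by the design was what OTX did to transcription without and with FA.

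An MHC class I molecule is a heavy chain paired with beta-2-microglobulin, the product of B2M, around a short peptide. The proteasome cuts peptides from proteins of the cell, the transporter made of TAP1 and TAP2 moves them into the endoplasmic reticulum, and tapasin, the product of TAPBP, holds the empty heavy chain at the transporter while a peptide is selected. HLA-B and HLA-C show peptides to killer T cells, HLA-E shows mainly leader peptides of other class I chains to receptors on natural killer cells, and HLA-F is a further heavy chain with limited surface expression. NLRC5 is drawn to class I promoters by the RFX complex and its partners, and interferons raise most of these genes, in part through the IRF factors. In leukaemia cells, surface class I sets how far T cells can recognise them.

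The promoter windows of 5 members are printed. Under OTX, TAP2 fell and the other printed genes rose in the comparisons where their change passed the test. TAPBP, which fell in IMS-M2, has a window that is not printed. A link between promoter elements and these changes was not tested. The windows come from RefSeq on GRCh38.p14 and run from 250 bases before to 50 bases after the start site. They are written 5′ to 3′ on the strand of the gene. Capitals mark matches, on either strand, to GAAANNGAA (interferon-stimulated response element core), GGGGANTCC (kappa B element), TGACGC (core of the X2 box), CCAAT (Y box), GGGCGG (GC box) and AANNGAAA (a shorter IRF core). Neighbouring or overlapping matches run together as 1 stretch of capitals. The shorter IRF core was added after the windows were read.
HLA-B, chr6:31357130-31357429, minus strand: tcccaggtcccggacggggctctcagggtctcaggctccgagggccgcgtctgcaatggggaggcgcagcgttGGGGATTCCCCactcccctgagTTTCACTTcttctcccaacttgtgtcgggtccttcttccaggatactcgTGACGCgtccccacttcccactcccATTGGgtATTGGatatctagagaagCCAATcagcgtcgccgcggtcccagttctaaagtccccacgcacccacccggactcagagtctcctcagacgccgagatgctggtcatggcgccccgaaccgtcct
HLA-C, chr6:31272043-31272342, minus strand: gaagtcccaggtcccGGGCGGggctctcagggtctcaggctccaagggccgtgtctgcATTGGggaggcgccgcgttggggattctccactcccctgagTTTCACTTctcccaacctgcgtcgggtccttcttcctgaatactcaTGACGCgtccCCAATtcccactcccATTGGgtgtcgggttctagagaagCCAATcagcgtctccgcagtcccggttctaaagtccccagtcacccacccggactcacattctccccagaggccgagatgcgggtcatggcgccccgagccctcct
B2M, chr15:44711267-44711566, plus strand: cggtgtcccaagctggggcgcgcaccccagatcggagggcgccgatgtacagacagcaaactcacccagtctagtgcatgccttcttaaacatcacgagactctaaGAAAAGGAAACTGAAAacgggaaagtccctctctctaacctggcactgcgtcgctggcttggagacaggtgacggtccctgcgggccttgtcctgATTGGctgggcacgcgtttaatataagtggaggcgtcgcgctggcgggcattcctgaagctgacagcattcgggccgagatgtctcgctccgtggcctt
TAP1, chr6:32853655-32853954, minus strand: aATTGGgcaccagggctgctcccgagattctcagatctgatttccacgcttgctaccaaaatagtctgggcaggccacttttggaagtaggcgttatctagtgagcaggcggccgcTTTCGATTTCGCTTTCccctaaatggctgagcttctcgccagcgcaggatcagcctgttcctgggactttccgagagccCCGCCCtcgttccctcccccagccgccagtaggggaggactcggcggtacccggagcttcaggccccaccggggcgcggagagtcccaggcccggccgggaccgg
TAP2, chr6:32838690-32838989, minus strand: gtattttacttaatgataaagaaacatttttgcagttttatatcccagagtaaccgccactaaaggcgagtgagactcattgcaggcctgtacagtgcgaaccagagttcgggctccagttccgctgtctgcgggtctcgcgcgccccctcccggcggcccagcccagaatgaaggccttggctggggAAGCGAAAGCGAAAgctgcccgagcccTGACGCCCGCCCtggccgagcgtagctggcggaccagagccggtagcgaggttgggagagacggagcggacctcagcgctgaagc

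Of the 9 members, 7 had such a window; HLA-E and NLRC5 are named only. The windows of HLA-B and HLA-C were 88.5% identical (269 of 304 aligned bases), against 79.2% for HLA-F with HLA-B and 78.5% for HLA-F with HLA-C. Both HLA-B and HLA-C held the X2 core followed by Y box matches, the order of the conserved SXY module through which NLRC5 and the RFX complex act. The 9-letter response element core had 2 matches each in B2M, TAP1 and TAPBP and 1 match each in TAP2 and HLA-F, and none in HLA-B or HLA-C, which matched only the shorter IRF core. That 9-letter core occurs in 8.11% of all 35116 windows of the table and the shorter core in 22.8%. The kappa B element was matched only in HLA-B among the members, on both strands of 1 overlapping stretch, and occurs in 1.53% of all windows. The X2 core (9.14% of windows) was also matched in TAP2, the Y box (34.6%) in HLA-B, HLA-C, HLA-F, TAP1 and B2M, and the GC box (45.0%) in HLA-C, TAP1, TAP2 and TAPBP. A second TAP1 window in the table, chr6:32852712-32853011, held a GC box match alone. These matches describe letters and do not show binding, and a missing match says only that these letters are not in the window.

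Across the series, a library's FPKM summed to between 522659 and 644841, and between 10418 and 10894 genes had 1 FPKM or more. The read depth is unknown. The members together took 0.335% to 0.677% of a library's FPKM sum. Of the 7 myeloid marker genes looked at, 7 in U937 and 6 in IMS-M2 reached 1 FPKM in a group, and CSF3R was under 1 FPKM in every IMS-M2 library. The 3 epithelial markers were at 0 in every U937 library and summed to at most 0.00574 FPKM in IMS-M2. The summed myeloid markers were lower under OTX in every table: 774 to 852 FPKM against 1767 to 2141 FPKM under DMSO in U937 without FA, 556 to 562 against 860 to 1024 in U937 with FA, 96.8 to 116 against 194 to 214 in IMS-M2 without FA, and 94.8 to 113 against 191 to 207 in IMS-M2 with FA. LYZ made up most of that sum in U937 under DMSO, at 446 FPKM under OTX against 1445 under DMSO without FA and 259.8 against 548 with FA, and single markers went the other way: CEBPA was at 66.9 ± 4.32 FPKM under OTX and 48.2 ± 4.50 FPKM under DMSO in IMS-M2 with FA, and MPO at 1.08 against 0.281 FPKM in U937 without FA and at 1.40 against 0.192 FPKM in U937 with FA. The 3 general leukocyte markers summed higher under OTX in U937, to 1712 to 1787 against 1508 to 1581 FPKM without FA and 1899 to 2096 against 1389.5 to 1597 FPKM with FA. In IMS-M2 they summed lower, to 315 to 337 against 481 to 527 FPKM without FA and 246 to 271 against 454 to 484 FPKM with FA. CORO1A was lower under OTX in U937 without FA, at 762 ± 63.3 FPKM against 904 ± 36.1 FPKM under DMSO. LCP1 did not fall in IMS-M2 without FA, at 125 ± 1.61 FPKM under OTX against 124 ± 7.39 FPKM under DMSO. Markers of other blood or stromal cells were low: the 2 T cell markers summed to at most 0.152 FPKM under OTX and 4.17 FPKM under DMSO in IMS-M2, the 3 stromal markers to at most 1.99 and 5.97 FPKM there, and the 2 B cell markers to at most 0.728 and 1.55 FPKM in U937. The 3 erythroid markers reached 10.4 FPKM in an OTX library of IMS-M2 without FA and at most 0.474 FPKM in every other group. These shifts moved with OTX beside the results that follow, and their part in them was not tested. Whether the 4 tables, 1 for each line and FA condition, shared a normalization is not stated, so levels set across tables are descriptions without a test.

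By level, B2M stood far above the other members, at group means of 1337 to 2633 FPKM. The heavy chains HLA-B, HLA-C and HLA-E lay between 50.8 and 409.6 FPKM, the loading genes between 12.5 and 74.0 FPKM, and NLRC5 between 1.26 and 4.40 FPKM. The lines differed in which heavy chain was high. HLA-B was the higher in U937, with DMSO means of 389 ± 32.6 FPKM without FA and 287 ± 23.5 FPKM with FA (SD, n = 3), against 126 ± 9.06 and 93.6 ± 4.79 FPKM in IMS-M2. HLA-E went the other way, at 56.9 ± 7.41 and 50.8 ± 2.69 FPKM in U937 without and with FA under DMSO, against 310.5 ± 18.4 and 246 ± 25.6 FPKM in IMS-M2. Reads of the polymorphic, near-identical HLA genes can be split or lost in counting against 1 reference genome, so the HLA levels, and the comparison between lines most of all, are uncertain.

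In the order of group means, no HLA-B library of U937 fell below an HLA-B library of IMS-M2, and within each pair of U937 groups in the same FA condition OTX and DMSO libraries overlapped. For HLA-C all neighbours in the order overlapped, with means between 237 FPKM (U937 +FA DMSO) and 392 FPKM (IMS-M2 -FA OTX). TAP2 had its highest mean in IMS-M2 +FA DMSO, 58.6 ± 5.60 FPKM, and its lowest in U937 +FA OTX, 12.5 ± 0.24 FPKM. HLA-F stayed at or below 0.249 FPKM in every library and was listed at 0 in 4 of the 24, all of them OTX libraries of IMS-M2, so its level is a trace and no fold is given. In U937 it was listed at 0.249, 0.0395 and 0.125 FPKM under OTX against 0.0498, 0.165 and 0.0280 under DMSO without FA, and at 0.0640, 0.0694 and 0.0596 against 0.133, 0.0889 and 0.163 with FA. In IMS-M2 it was listed at 0, 0 and 0.114 FPKM under OTX against 0.0586, 0.0531 and 0.0134 under DMSO without FA, and at 0, 0.0606 and 0 against 0.128, 0.0647 and 0.0606 with FA. The OTX libraries lay below the DMSO libraries in U937 with FA and overlapped or tied with them elsewhere. With no filter on low values HLA-F was called in no comparison. Its deposited locus, chr6:29691116-29716826 on hg19, also overlaps HLA-F-AS1.

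**Figure D1:**
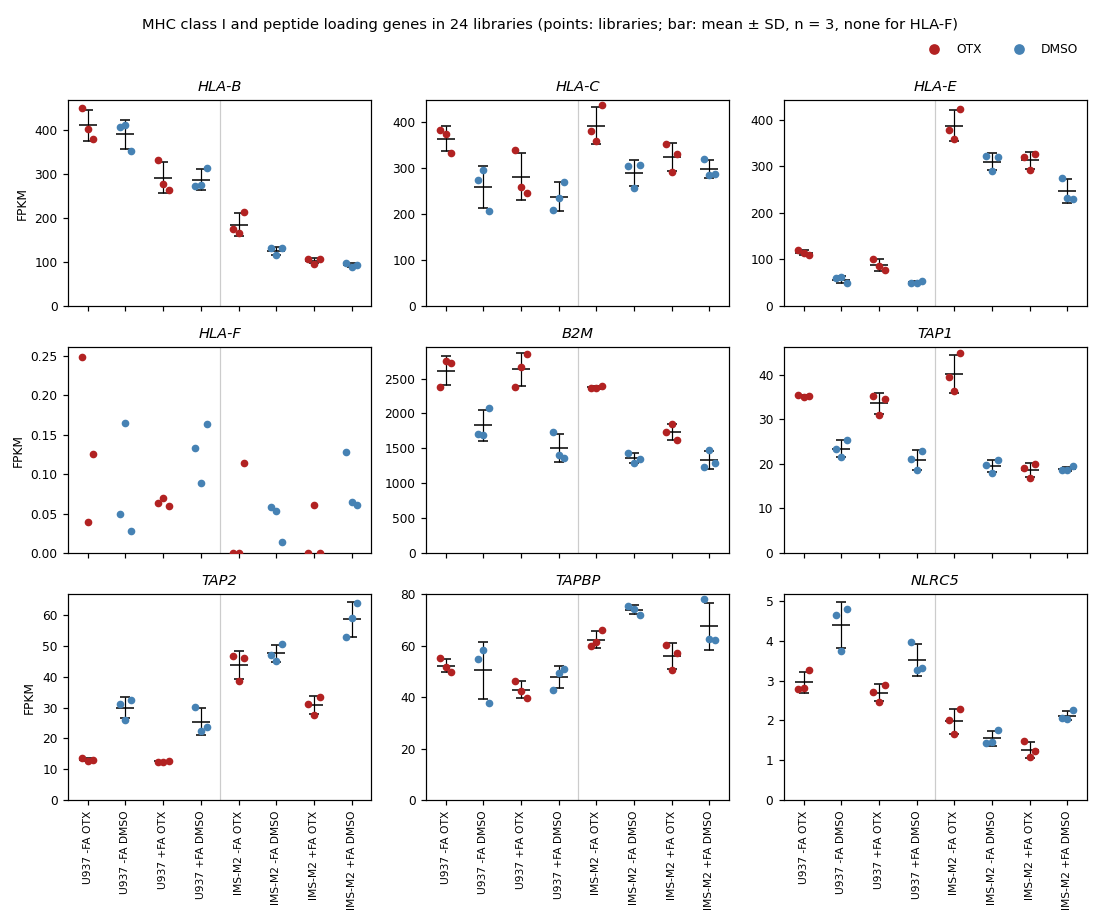
FPKM of the 9 members in each library (points, OTX red and DMSO blue) by line, FA condition and treatment, with mean ± SD of 3 libraries as bars, except for HLA-F. B2M, TAP1 and HLA-E lie higher and TAP2 lower under OTX in most groups, whereas HLA-B overlaps in U937.

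Under OTX the members did not move as 1 block. In all 4 comparisons HLA-E and B2M rose, and TAP2 and NLRC5 fell in 3 of them while TAP1 rose in 3. Called means an adjusted p below 0.05 in limma, with Benjamini-Hochberg adjustment over all genes tested. In U937 without FA, 4 of 8 members were called higher and 2 lower, where 28.0% of all 11194 genes were called higher and 31.7% lower. In U937 with FA the counts were 3 higher and 2 lower, against 29.1% and 27.0% of all genes. In IMS-M2 without FA they were 5 higher and 1 lower, against 27.5% and 30.0% of 11223 genes. In IMS-M2 with FA they were 2 higher and 3 lower, against 29.8% and 33.4%. The median log2 change of the 8 members was 0.29 in U937 without FA, 0.12 in U937 with FA, 0.38 in IMS-M2 without FA and 0.05 in IMS-M2 with FA, beside medians over all genes of -0.02, 0.02, -0.01 and -0.03 in the same order. These shares of all genes are so high that a count over 8 members carries little by itself, and the values of each gene follow. Whether OTX and DMSO libraries overlapped is given with them as a description. It stands without the share of all genes whose groups were apart. Groups lying apart therefore do not by themselves set a gene off from other genes. In bulk RNA a change of the cell mix and a change of RNA per cell cannot be told apart.

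HLA-E, the class I chain read by natural killer cell receptors, rose in both lines (chr6:30457182-30461982 as deposited, hg19). HLA-E read 120.2, 115 and 109 FPKM in the OTX libraries of U937 without FA, against 59.4, 62.7 and 48.5 FPKM in the DMSO libraries. In U937 with FA, HLA-E was at 101, 86.3 and 77.2 FPKM under OTX, against 48.5, 50.2 and 53.8 FPKM under DMSO. In both U937 tables all OTX libraries lay above all DMSO libraries, and the log2 changes were 1.01 (SE 0.12, adjusted p = 2.05e-05) without FA and 0.78 (SE 0.12, adjusted p = 0.000157) with FA. The IMS-M2 -FA libraries gave HLA-E values of 379, 359.8 and 424 FPKM with OTX and 323, 289 and 319 FPKM with DMSO. For IMS-M2 with FA the HLA-E levels were 319.7, 293 and 328 FPKM under OTX and 276, 232 and 231 FPKM under DMSO. Here too the groups did not overlap, and the changes were smaller, 0.32 (SE 0.10, adjusted p = 0.0124) without FA and 0.35 (SE 0.10, adjusted p = 0.00657) with FA. The IMS-M2 call without FA was lost without DMSO replicate 2 (adjusted p = 0.052) and without OTX replicate 3 (adjusted p = 0.0602).

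HLA-B, a classical chain that presents peptides to T cells, was called in 1 of the 4 comparisons (chr6:31321648-31324989). In U937 without FA, HLA-B was at 449, 401 and 379 FPKM under OTX, against 405, 411 and 352 FPKM under DMSO. The U937 +FA libraries gave HLA-B values of 330.4, 276 and 264 FPKM with OTX and 272, 274 and 314 FPKM with DMSO. OTX and DMSO libraries overlapped in both tables, with log2 changes of 0.07 (SE 0.11, adjusted p = 0.592) and 0.01 (SE 0.11, adjusted p = 0.92). The 95% intervals of these changes ran from -0.17 to 0.32 without FA and from -0.23 to 0.26 with FA. For IMS-M2 without FA the HLA-B levels were 175, 165 and 214 FPKM under OTX and 131, 115 and 131 FPKM under DMSO. All OTX libraries were higher there, with replicate 3 the highest, and HLA-B rose by a log2 change of 0.54 (SE 0.10, adjusted p = 0.000528). HLA-B read 106, 95.9 and 106 FPKM in the OTX libraries of IMS-M2 with FA, against 98.6, 89.0 and 93.4 FPKM in the DMSO libraries. These overlapped, with a log2 change of 0.13 (SE 0.10, adjusted p = 0.266) and an interval from -0.09 to 0.35.

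HLA-C, the other classical chain and a ligand of killer cell receptors, rose in both lines without FA (chr6:31236525-31239913). The U937 -FA libraries gave HLA-C values of 383, 374 and 332 FPKM with OTX and 275, 294 and 206 FPKM with DMSO. For IMS-M2 without FA the HLA-C levels were 381, 359 and 436 FPKM under OTX and 305, 257 and 306 FPKM under DMSO. The groups were apart in both tables, and the log2 changes were 0.50 (SE 0.16, adjusted p = 0.0173) in U937 and 0.44 (SE 0.11, adjusted p = 0.00355) in IMS-M2. HLA-C read 339, 258 and 245 FPKM in the OTX libraries of U937 with FA, against 208, 234 and 270.2 FPKM in the DMSO libraries. In IMS-M2 with FA, HLA-C was at 352, 290.0 and 329.6 FPKM under OTX, against 319, 284 and 286 FPKM under DMSO. With FA the groups overlapped in both lines, and neither 0.23 (SE 0.16, adjusted p = 0.232) in U937 nor 0.12 (SE 0.11, adjusted p = 0.322) in IMS-M2 was called. The U937 call without FA was lost with no filter on low values (adjusted p = 0.0545), without DMSO column 2 (0.0619), without OTX column 0 (0.0559) and without OTX column 1 (0.0537).

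B2M, the light chain shared by all class I molecules, rose in all 4 comparisons (chr15:45003684-45010357). For U937 without FA the B2M levels were 2375, 2746 and 2724 FPKM under OTX and 1707, 1693 and 2084 FPKM under DMSO. B2M read 2382, 2669.9 and 2848 FPKM in the OTX libraries of U937 with FA, against 1728, 1405 and 1365 FPKM in the DMSO libraries. In IMS-M2 without FA, B2M was at 2368, 2359 and 2393 FPKM under OTX, against 1429, 1288 and 1348 FPKM under DMSO. All OTX libraries exceeded all DMSO libraries in each of these tables, and the 3 OTX libraries of IMS-M2 lay close together. The IMS-M2 +FA libraries gave B2M values of 1728, 1848 and 1615 FPKM with OTX and 1235, 1481 and 1296 FPKM with DMSO. The groups were apart here as well, with the smallest of the 4 changes. On the log2 scale B2M rose by 0.52 (SE 0.13, adjusted p = 0.00387) in U937 without FA, 0.82 (SE 0.13, adjusted p = 0.000199) in U937 with FA, 0.81 (SE 0.09, adjusted p = 7.34e-06) in IMS-M2 without FA and 0.37 (SE 0.09, adjusted p = 0.00278) in IMS-M2 with FA.

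TAP1, one subunit of the peptide transporter, rose in 3 of the 4 comparisons (chr6:32808493-32821748). TAP1 read 35.3, 35.0 and 35.2 FPKM in the OTX libraries of U937 without FA, against 23.2, 21.5 and 25.3 FPKM in the DMSO libraries. In U937 with FA, TAP1 was at 35.2, 30.9 and 34.5 FPKM under OTX, against 21.0, 18.5 and 22.9 FPKM under DMSO. The IMS-M2 -FA libraries gave TAP1 values of 39.3, 36.4 and 44.8 FPKM with OTX and 19.7, 18.0 and 20.8 FPKM with DMSO. No OTX library of these tables fell below a DMSO library. The log2 changes were 0.57 (SE 0.09, adjusted p = 0.000241), 0.67 (SE 0.09, adjusted p = 8.53e-05) and 1.0 (SE 0.09, adjusted p = 1.19e-06), the last a 2.01-fold rise on the FPKM + 1 scale. For IMS-M2 with FA the TAP1 levels were 19.1, 16.9 and 19.9 FPKM under OTX and 18.6, 18.6 and 19.4 FPKM under DMSO. In this table the groups overlapped, and the log2 change was -0.02 (SE 0.09, adjusted p = 0.858) with a 95% interval from -0.22 to 0.18. Rescaling each library to the median ratio of its table made this last value 0.053, also not called. The locus deposited for TAP1 overlaps PSMB8 and LOC100507463.

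TAP2, the partner without which TAP1 moves no peptide, went the opposite way to TAP1 in U937 (chr6:32789609-32806547). In U937 without FA, TAP2 was at 13.6, 12.6 and 13.0 FPKM under OTX, against 31.2, 26.0 and 32.5 FPKM under DMSO. The U937 +FA libraries gave TAP2 values of 12.3, 12.4 and 12.8 FPKM with OTX and 30.3, 22.4 and 23.6 FPKM with DMSO. For IMS-M2 with FA the TAP2 levels were 31.0, 27.6 and 33.5 FPKM under OTX and 52.8, 59.1 and 63.9 FPKM under DMSO. OTX libraries lay below DMSO libraries in all 3 tables without overlap. TAP2 fell in each, with log2 changes of -1.13 (SE 0.11, adjusted p = 6.68e-06) in U937 without FA, -0.96 (SE 0.11, adjusted p = 2.57e-05) in U937 with FA and -0.91 (SE 0.10, adjusted p = 7.21e-06) in IMS-M2 with FA. TAP2 read 46.7, 38.5 and 46.0 FPKM in the OTX libraries of IMS-M2 without FA, against 47.1, 45.1 and 50.5 FPKM in the DMSO libraries. Here OTX replicates 1 and 3 lay above DMSO replicate 2, and the log2 change of -0.12 (SE 0.10, adjusted p = 0.323) had an interval from -0.34 to 0.10.

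TAPBP, which encodes tapasin, fell in IMS-M2 by small margins (chr6:33267471-33282164). The IMS-M2 -FA libraries gave TAPBP values of 59.8, 61.4 and 66.1 FPKM with OTX and 75.6, 74.3 and 72.1 FPKM with DMSO. For IMS-M2 with FA the TAPBP levels were 60.3, 50.5 and 57.3 FPKM under OTX and 78.1, 62.6 and 62.2 FPKM under DMSO. The groups were apart in both, with log2 changes of -0.24 (SE 0.10, adjusted p = 0.0479) and -0.26 (SE 0.10, adjusted p = 0.0312). Both calls were close to the threshold. Without FA the call was lost when any 1 library other than OTX replicate 3 was left out (adjusted p of 0.116, 0.0968 and 0.0765 without DMSO replicates 1, 2 and 3, and of 0.140 and 0.105 without OTX replicates 1 and 2). With FA it was lost without DMSO replicate 1 (0.10), OTX replicate 2 (0.127) or OTX replicate 3 (0.052). After rescaling both were lost, at 0.112 and 0.127, and with no filter on low values at 0.0928 and 0.062. Keeping only genes that reached 5 FPKM lost the first (0.0514), and fitting the table alone the second (0.0947). In U937 the OTX libraries overlapped the DMSO libraries in both tables, with log2 changes of 0.07 (SE 0.14, adjusted p = 0.675) without FA and -0.15 (SE 0.14, adjusted p = 0.375) with FA, from means of 52.2 against 50.4 FPKM and of 42.8 against 47.8 FPKM.

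NLRC5, the transactivator of class I genes, fell in 3 comparisons in which B2M rose (chr16:57050985-57117436). For U937 without FA the NLRC5 levels were 2.79, 2.81 and 3.25 FPKM under OTX and 4.66, 3.74 and 4.80 FPKM under DMSO. NLRC5 read 2.72, 2.46 and 2.89 FPKM in the OTX libraries of U937 with FA, against 3.98, 3.26 and 3.30 FPKM in the DMSO libraries. In IMS-M2 with FA, NLRC5 was at 1.48, 1.07 and 1.23 FPKM under OTX, against 2.06, 2.04 and 2.25 FPKM under DMSO. In these 3 tables every OTX library was below every DMSO library. NLRC5 fell in each, with log2 changes of -0.45 (SE 0.10, adjusted p = 0.00222), -0.29 (SE 0.10, adjusted p = 0.0261) and -0.47 (SE 0.10, adjusted p = 0.00104) in the order given, on a scale that understates changes at such low levels. The IMS-M2 -FA libraries gave NLRC5 values of 2.01, 1.65 and 2.27 FPKM with OTX and 1.42, 1.46 and 1.77 FPKM with DMSO. Without FA the IMS-M2 groups overlapped, OTX replicate 2 lying below DMSO replicate 3, and the log2 change of 0.22 (SE 0.10, adjusted p = 0.066) was not called. The U937 call with FA was lost with no filter on low values (adjusted p = 0.0607), without DMSO replicate 1 (0.0984) and without OTX replicate 2 (0.094). The IMS-M2 value without FA passed after rescaling (0.0367), without DMSO replicate 3 (0.0426) and without OTX replicate 2 (0.0222).

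**Figure D2:**
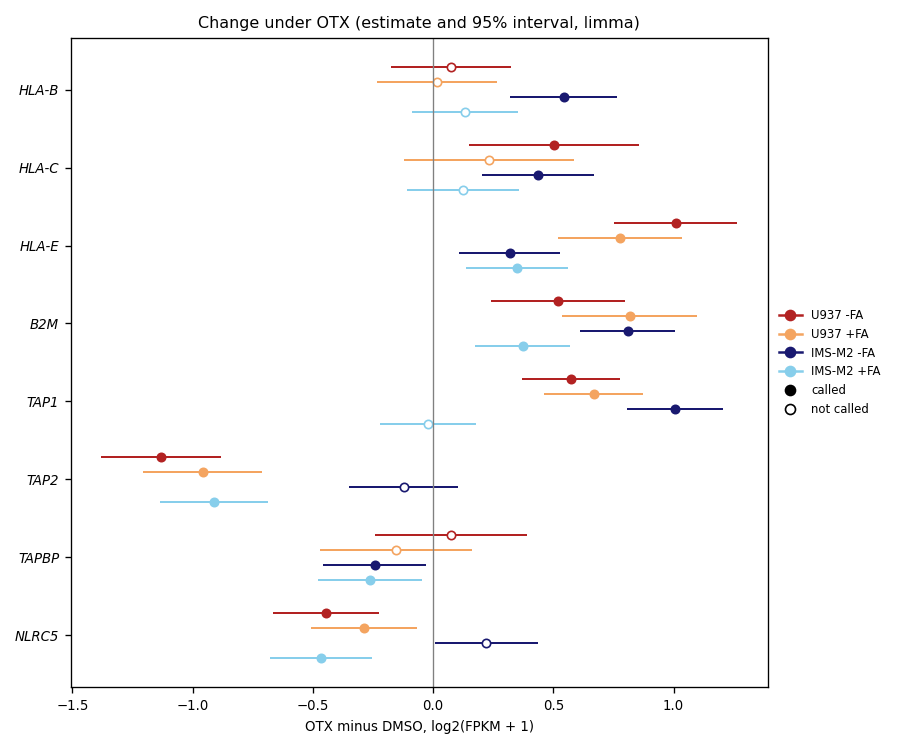
Change under OTX of the 8 tested members, OTX minus DMSO on the log2(FPKM + 1) scale, with the 95% interval from limma; filled points passed an adjusted p of 0.05. HLA-E and B2M lie right of 0 in all 4 comparisons, and TAP2 lies between -0.91 and -1.13 in 3 of them.

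Ratios within a library do not depend on how the libraries were scaled, and they show how unevenly the members moved. TAP1 over TAP2 was 2.59, 2.78 and 2.70 in OTX-treated U937 cells without FA, against 0.745, 0.827 and 0.780 in DMSO-treated ones. With FA it was 2.86, 2.497 and 2.70 in OTX-treated U937 cells, against 0.692, 0.825 and 0.973 under DMSO. So TAP1 mRNA was above TAP2 mRNA in every OTX library of U937 and below it in every DMSO library. In IMS-M2 the ratio stayed below 1 in all 12 libraries. It was 0.842, 0.945 and 0.973 under OTX against 0.417, 0.400 and 0.411 under DMSO without FA, and 0.616, 0.611 and 0.596 under OTX against 0.352, 0.315 and 0.303 under DMSO with FA. The OTX over DMSO fold of the ratio was 3.44 and 3.26 in U937 without and with FA, and 2.24 and 1.88 in IMS-M2 without and with FA. Groups did not overlap in any of the 4 tables, and an exact two-sided permutation test gave p = 0.1 in each, the smallest that 3 against 3 libraries allow.

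HLA-E over HLA-B was also higher under OTX in U937, at 0.268, 0.287 and 0.288 under OTX against 0.147, 0.153 and 0.138 under DMSO without FA, and at 0.306, 0.312 and 0.292 under OTX against 0.178, 0.183 and 0.171 under DMSO with FA. In IMS-M2 without FA the same ratio was lower under OTX, at 2.171, 2.180 and 1.982 against 2.47, 2.51 and 2.43 under DMSO. With FA it was higher under OTX there, at 3.02, 3.05 and 3.08 against 2.80, 2.61 and 2.47 under DMSO. None of the 4 tables showed overlap, and p was 0.1 in each by the exact permutation test. B2M over the sum of HLA-B, HLA-C and HLA-E separated the groups in 1 table, IMS-M2 without FA, with 2.48 ± 0.23 under OTX and 1.87 ± 0.08 under DMSO (SD, n = 3; exact permutation p = 0.1).

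**Figure D3:**
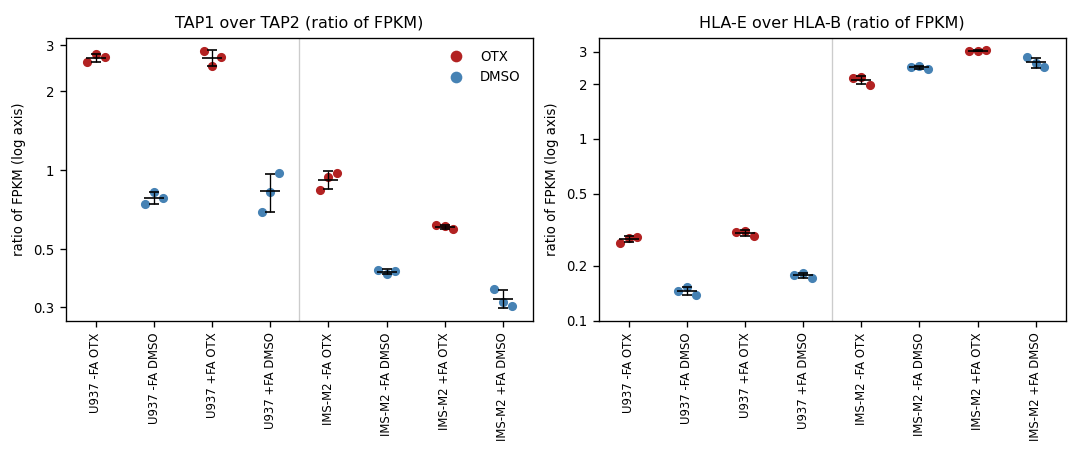
Ratio of FPKM in each library (points, OTX red and DMSO blue) on log axes, with mean ± SD of 3 libraries, for TAP1 over TAP2 on the left and HLA-E over HLA-B on the right. TAP1 over TAP2 is above 1 in the 6 OTX libraries of U937 and below 1 in all other libraries.

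The next comparison asked whether FA changed what OTX did, by subtracting the OTX change with FA from the OTX change without it. In IMS-M2 the differences were called for TAP1, TAP2 and NLRC5, all positive, so 3 of 8 members were called higher, where 3.33% of 11223 genes were called higher and 3.61% lower. TAP1 differed by 1.02 (SE 0.13, adjusted p = 0.00203), its rise being called only without FA. TAP2 differed by 0.79 (SE 0.14, adjusted p = 0.0157), its fall being called only with FA. NLRC5 differed by 0.69 (SE 0.14, adjusted p = 0.0201), with a value of 0.22 without FA and -0.47 with FA. The members' median difference was 0.42 and that of all genes 0.03. B2M at 0.44 (SE 0.13, adjusted p = 0.0549) and HLA-B at 0.41 (SE 0.14, adjusted p = 0.0855) were not called.

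As single libraries were left out, these differences ranged from 0.94 to 1.09 for TAP1, which was called each time, from 0.72 to 0.88 for TAP2 and from 0.62 to 0.77 for NLRC5. Without OTX replicate 1 of IMS-M2 -FA only TAP1 of the members was called; TAP2 was then at 0.74 with an adjusted p of 0.0573 and NLRC5 at 0.68 with 0.0652. The NLRC5 call was also lost without +FA OTX replicate 2 (0.0527), -FA DMSO replicate 1 (0.0562), -FA DMSO replicate 2 (0.0542) and -FA OTX replicate 3 (0.0561), and with no filter on low values (0.057). B2M was called without +FA DMSO replicate 1 (0.00822), with a filter of 5 FPKM (0.0491) and with no intensity trend (0.045), and HLA-B without -FA OTX replicate 2 (0.0492). The count over all genes, 779, moved between 82 and 3417 as single libraries were left out, from 82 without -FA OTX replicate 1 to 3417 without +FA DMSO replicate 1. In U937 no member was called in either direction by limma, none had an unadjusted p below 0.05, and 2.01% of 11194 genes were called. The interval of the U937 difference ran from -0.38 to 0.19 for TAP1 and from -0.52 to 0.17 for TAP2. Whether the FA differences of the lines differ from each other was not tested.

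The last comparison asked whether OTX did the same in both lines, by subtracting the change in IMS-M2 from the change in U937. With FA, 3 members were called higher, where 27.7% of 12197 genes were called higher and 22.9% lower. They were TAP1 at 0.69 (SE 0.13, adjusted p = 0.00016), B2M at 0.44 (SE 0.15, adjusted p = 0.0193) and HLA-E at 0.43 (SE 0.15, adjusted p = 0.0226). Without FA, 1 member was called higher and 4 lower, where 21.5% of genes were called higher and 21.5% lower. HLA-E was again higher, at 0.69 (SE 0.15, adjusted p = 0.000944). TAP2 was lower at -1.01 (SE 0.15, adjusted p = 2.53e-05), NLRC5 at -0.67 (SE 0.13, adjusted p = 0.000504), HLA-B at -0.47 (SE 0.15, adjusted p = 0.0159) and TAP1 at -0.43 (SE 0.13, adjusted p = 0.0092). TAP1 thus had opposite signs in the 2 FA conditions. The members' median difference was 0.14 with FA and -0.36 without it, beside 0.04 and -0.02 over all genes.

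With FA the HLA-E call was lost after rescaling (adjusted p = 0.0709) and without IMS-M2 DMSO replicate 1 (0.0606), IMS-M2 OTX replicate 2 (0.0589) or U937 OTX replicate 1 (0.0702). The B2M call was lost without IMS-M2 DMSO replicate 2 (0.058), IMS-M2 OTX replicate 3 (0.0502), U937 DMSO replicate 2 (0.0516), U937 DMSO replicate 3 (0.0567) or U937 OTX replicate 3 (0.0561). Without FA the HLA-B call was lost without IMS-M2 OTX replicate 3 (0.0554), and TAPBP was called without U937 DMSO column 1 (0.0457). The comparisons share libraries with the OTX comparisons above, so their values are not independent of them.

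**Figure D4:**
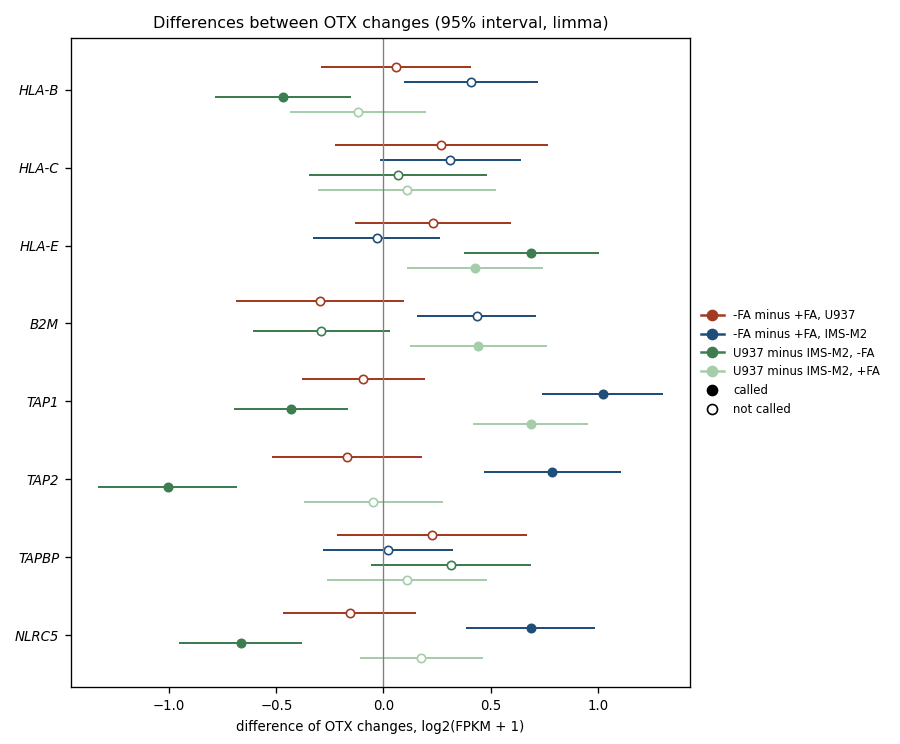
Differences between OTX changes for the 8 tested members, on the log2(FPKM + 1) scale with 95% intervals from limma; filled points passed an adjusted p of 0.05. TAP1, TAP2 and NLRC5 lie between 0.69 and 1.02 for the FA difference in IMS-M2, and no member is filled for the FA difference in U937.

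The genes around the members were read in 5 lists, chosen with earlier results known, and their changes are log2 differences as above. Their counts stand beside shares of all genes called higher and lower of 28.0% and 31.7% in U937 without FA, 29.1% and 27.0% in U937 with FA, 27.5% and 30.0% in IMS-M2 without FA and 29.8% and 33.4% in IMS-M2 with FA. Of the 10 genes of peptide loading and trimming, the U937 comparisons called 2 higher and 1 lower of 9 tested without FA, and 4 higher and 1 lower of 9 with FA. In IMS-M2, 2 were higher and 7 lower of 10 in both FA conditions. The U937 count without FA, 22.2% higher, was below the 28.0% of all genes. The list medians were 0.01 and 0.24 in U937 without and with FA, and -0.33 and -0.59 in IMS-M2. SPPL2A, an intramembrane protease, rose in all 4 comparisons, by 1.02 and 1.47 in U937 and by 1.21 and 0.85 in IMS-M2, without and with FA, and LNPEP, an aminopeptidase that can trim peptides, rose in 3. The trimming enzyme ERAP2 fell in IMS-M2, to 7.95 ± 0.47 FPKM under OTX against 18.5 ± 0.13 FPKM under DMSO without FA, and to 5.84 ± 0.22 against 19.8 ± 0.37 FPKM with FA (SD, n = 3). In U937 ERAP2 stayed below 1 FPKM. ERAP1, its partner, had log2 changes of -0.46 and -0.79 in IMS-M2 without and with FA and of -0.32 in U937 without FA, all called. The chaperone HSPA5 fell in IMS-M2, with -0.78 without FA and -1.16 with FA, as did calreticulin, CALR, which helps fold the heavy chain, with -0.72 and -1.07. In U937 with FA HSPA5 rose by 0.39.

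The 10 proteasome genes held subunits that differ between the standard and the immune form. They gave 3 higher and 5 lower in U937 without FA, 1 and 6 in U937 with FA, 0 and 6 in IMS-M2 without FA and 1 and 5 in IMS-M2 with FA, all 10 tested. The 5 or 6 of 10 called lower stand against 27.0% to 33.4% of all genes. PSMB8, an immune subunit, fell in all 4 comparisons, to 88.8 ± 4.36 FPKM under OTX against 193 ± 2.47 FPKM under DMSO in U937 without FA, and to 38.4 ± 0.56 against 117 ± 9.33 FPKM in IMS-M2 with FA. PSMB9, another immune subunit that shares a bidirectional promoter with TAP1, rose in U937 by 0.64 without FA and 0.82 with FA. In IMS-M2 it was at 19.3 ± 1.30 FPKM under OTX and 17.8 ± 1.60 FPKM under DMSO without FA, and was not called in either condition. The U937 minus IMS-M2 difference of PSMB9 was 0.90 with FA (adjusted p = 1.57e-05) and 0.52 without FA (adjusted p = 0.0036). PSMB5, the standard counterpart of PSMB8, fell in all 4 comparisons, with log2 changes from -0.60 to -0.70. The list medians were -0.21 and -0.35 in U937 without and with FA, and -0.25 and -0.17 in IMS-M2. TAP1, PSMB8, PSMB9 and TAP2 lie next to each other on chromosome 6. Their changes under OTX had different signs in U937 and in IMS-M2 without FA. In IMS-M2 with FA none of them was higher, with TAP1 at -0.02 (not called), TAP2 at -0.91 and PSMB8 at -1.58. All PSMB9 libraries under OTX lay below all those under DMSO in that table.

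Of 26 genes listed as regulators of class I, 25 were tested in each line. The list was not split by whether a gene raises or lowers class I, so its counts give no direction of regulation. In U937, 13 were higher and 5 lower without FA, and 14 and 2 with FA. In IMS-M2, 12 were higher and 5 lower without FA, and 8 and 4 with FA. The shares called higher were 52.0% and 56.0% in U937, against 28.0% and 29.1% of all genes, and 48.0% and 32.0% in IMS-M2, against 27.5% and 29.8%. IRF7, an interferon-inducible factor, rose most, to 25.8 ± 2.74 FPKM under OTX against 3.02 ± 0.57 FPKM under DMSO in U937 without FA, and to 29.9 ± 4.06 against 4.21 ± 0.78 FPKM in IMS-M2 with FA. The kinase JAK1, which carries the interferon signal, rose by 0.96 to 1.07 in all 4. IRF1, which binds class I promoters, rose by 1.12 and 1.499 in U937 and by 0.54 in IMS-M2 without FA. With FA in IMS-M2 its value was 0.18 (adjusted p = 0.114), which was not called. RFX5, a subunit of the RFX complex that works with NLRC5, was called in no comparison. Its values lay between -0.08 and -0.11, with adjusted p of 0.212 to 0.315. Other subunits of that complex were called lower in some comparisons. RFXANK changed in IMS-M2 by -0.36 (adjusted p = 0.00312) without FA and by -0.32 (adjusted p = 0.00575) with FA. RFXAP changed in U937 by -0.51 (adjusted p = 0.00126) without FA and by -0.38 (adjusted p = 0.00873) with FA. CIITA, the class II relative of NLRC5, fell in IMS-M2, with a log2 change of -1.97 in both FA conditions, and IRF8 fell in U937, with -1.58 without FA and -1.995 with FA. KIAA0247, the older symbol of SUSD6, rose in U937 by 0.74 without FA and 0.90 with FA. The list medians were 0.25 and 0.34 in U937 without and with FA, and 0.19 and 0.14 in IMS-M2.

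The class I relatives moved unevenly, and nearly all tested class II genes of IMS-M2 fell. Of 12 relatives and killer cell ligands, 7 were tested in U937 and 8 in IMS-M2. They gave 0 higher and 2 lower in U937 without FA, 2 and 2 in U937 with FA, 1 and 4 in IMS-M2 without FA and 1 and 6 in IMS-M2 with FA. The U937 count with FA, 28.6% in each direction, was at the level of all genes, 29.1% and 27.0%. FCGRT, the heavy chain of the neonatal Fc receptor, which also pairs with B2M, fell in IMS-M2, with log2 changes of -2.39 without FA and -2.23 with FA, and in U937 with FA, with -0.96, and PROCR, a CD1-like receptor of protein C, fell in all 4 comparisons. ULBP2, a ligand of an activating receptor of natural killer cells, rose in U937 with FA by 1.0 and in IMS-M2 by 0.74 without FA and 0.41 with FA. Of 13 class II genes, 6 were tested in U937, where 4 fell in each FA condition and none rose. In IMS-M2, 8 of 9 tested fell and 1, the thiol reductase IFI30, rose without FA, and 9 of 9 fell with FA. HLA-DRA stood at 21.9 ± 1.07 FPKM under OTX and 92.0 ± 9.69 FPKM under DMSO in IMS-M2 without FA, and at 15.7 ± 1.09 and 116 ± 5.75 FPKM with FA. In U937 HLA-DRA was below 1 FPKM in all groups, and CD74, the class II chaperone, fell there, with log2 changes of -0.68 without FA and -0.99 with FA. The list medians were -0.98 and -1.73 in IMS-M2 without and with FA and -0.70 and -0.73 in U937 for class II, and -0.26 and -0.57 in IMS-M2 and -0.05 and 0.11 in U937 for the relatives. In the same tables the summed myeloid markers were lower under OTX, with the exceptions given for CEBPA and MPO. The summed leukocyte markers were higher in U937 and lower in IMS-M2, with the exceptions given for CORO1A and LCP1. The part of both sums in these lists was not tested.

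**Figure D5:**
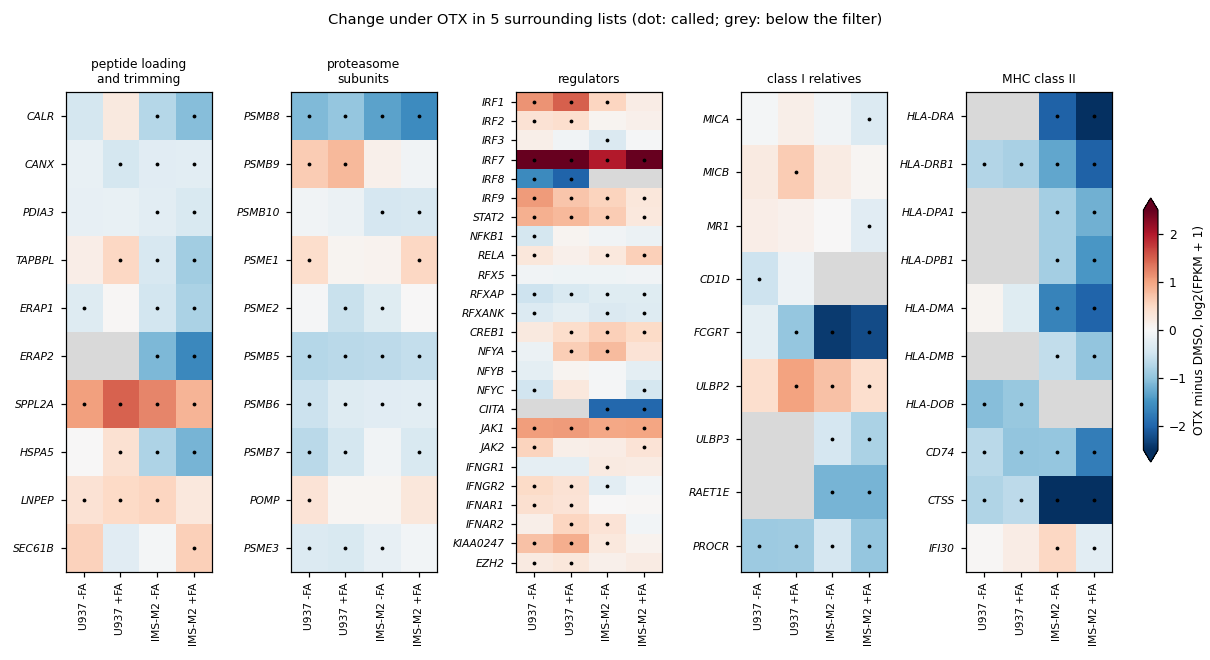
Change under OTX, OTX minus DMSO on the log2(FPKM + 1) scale, of genes in 5 surrounding lists in the 4 line and FA conditions; dots mark an adjusted p below 0.05, grey cells were below the filter, and colours saturate beyond 2.5. IRF7 and JAK1 are red and PSMB8 and PSMB5 blue in all 4 columns, and the tested class II genes are blue in IMS-M2 except IFI30 without FA.

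The genes most like the members were sought over the 12 libraries of each line, by Pearson correlation with the mean profile of the 8 members after the mean of each table was removed. In U937 the 5 highest of 8703 genes were DGAT1 (0.983), SGSM3 (0.982), RUSC2 (0.975), SDSL (0.974) and IL10RA (0.973). In IMS-M2 the 5 highest of 8757 were LSS (0.966), CHAC1 (0.945), CTSB (0.936), GRN (0.934) and FADS2 (0.929). No gene was in both lists of 5. All 12 libraries share the treatment contrast, so the values describe likeness only. The members were themselves uneven: in U937 TAP2 had an r of -0.80 and NLRC5 of -0.73 with the mean profile, against 0.91 for HLA-E, and in IMS-M2 TAP1 had 0.95, HLA-B 0.91 and TAPBP -0.20.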

How the data were processed

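PolyA RNA of 24 cell line libraries was extracted with a Qiagen RNAEasy plus mini kit and prepared with a TruSeq Stranded mRNA LT kit, per the labels' protocols. Per the submitters' processing notes, the tools were bcl2fastq 2.17.1.14, TopHat2 2.1.1 and Cuffdiff 2.2.1 on hg19; their order and settings, the use of strand and any normalization across tables are not given in the sources used here. The authors deposited 4 tables of FPKM per gene, 1 for each line and FA condition; the unit was read from the tools and the values, since the headers do not name it. Depth is unknown, and FPKM are not counts, so no count model was used. Samples were grouped by their labels. The columns of U937 without FA are numbered from 0 and the labels from 1, so they were assigned to a group only and are called columns.

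Genes whose mean reached 1 FPKM in any group of a fit were kept. Their log2(FPKM + 1) values were tested with limma (version 3.58.1, under R version 4.3.3), with group means over the 12 libraries of a line (24 for differences between lines), an intensity trend and Benjamini-Hochberg adjustment over all genes tested. The pseudocount of 1 understates changes of low genes. Called means an adjusted p below 0.05, and errors of log2 changes are limma's SE. Ratios within libraries were compared with exact permutation tests. The fits were also run on simulated data with noise drawn independently for each gene and library. Such data hold no deviation shared by a whole library. They therefore say nothing on how far counts move when a library is left out. Python 3.11.15 with pandas 2.3.3, scipy 1.17.1, biopython 1.88 and matplotlib 3.10.9 was used for the rest.

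The members and lists were chosen with earlier results of these data known. All members are named, and from each list up to 3 genes per direction with the smallest p in each OTX comparison, with IRF1 and RFX5 always; a further regulator counted in its list is not reported here; further values of genes so named were added where they complete a comparison. The 5 genes most like the members in each line were taken among genes whose mean reached 5 FPKM in any group. Alternatives were other pseudocounts, no filter and a stricter one, rescaled libraries, no intensity trend, each table alone, a replicate block and leaving out each library.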

Additional observations from a re-analysis of the deposited data

Results flagged for a closer look

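Differences between OTX changes that passed the test themselves are listed here. All are log2 values from limma, with Benjamini-Hochberg adjustment, and the values of the groups stand in the report. Between FA conditions in IMS-M2, the change without FA exceeded that with FA for TAP1 by 1.02 (adjusted p = 0.00203), for TAP2 by 0.79 (adjusted p = 0.0157) and for NLRC5 by 0.69 (adjusted p = 0.0201). Between lines with FA, the U937 change exceeded the IMS-M2 change for TAP1 by 0.69 (adjusted p = 0.00016), for B2M by 0.44 (adjusted p = 0.0193) and for HLA-E by 0.43 (adjusted p = 0.0226). Between lines without FA, the change in U937 less that in IMS-M2 was 0.69 for HLA-E (adjusted p = 0.000944), -0.47 for HLA-B (adjusted p = 0.0159), -0.43 for TAP1 (adjusted p = 0.0092), -1.01 for TAP2 (adjusted p = 2.53e-05) and -0.67 for NLRC5 (adjusted p = 0.000504). TAP1 is the member whose difference between lines had opposite signs in the 2 FA conditions and was called in both.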

How the results depend on the processing

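Depth is unknown, so no counting error is given, and 3 libraries a group limit every comparison. The count of called members stayed within 1.5 times of the reported one except in 2 comparisons. For the FA difference in IMS-M2 it was 5 with the replicate block and 1 to 4 as single libraries were left out, 1 without -FA OTX replicate 1. For the line difference with FA it was 1 with the replicate block and 2 to 3 as single libraries were left out. Leaving out libraries gave 5 to 6 called members in U937 without FA, 4 to 5 in U937 with FA, 4 to 6 in IMS-M2 without FA and 4 to 5 in IMS-M2 with FA.

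Over all genes the FA difference in IMS-M2 called 779 genes, against 228 with no filter, 1920 with the replicate block and 82 to 3417 without single libraries. In U937 it called 225, against 31 with a pseudocount of 0.1, 64 with no filter and 1 to 2687 without single libraries (2687 without DMSO column 1 of -FA). There rescaling moved the share of called genes that were higher from 36.9% to 56.8%.

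Values that changed sign were all uncalled. After rescaling, TAP1 in IMS-M2 with FA was 0.053 and the FA difference of TAPBP in IMS-M2 was -0.014. Leaving out single libraries gave -0.068 to 0.047 for TAP1 in IMS-M2 with FA, -0.081 to 0.081 for HLA-B in U937 with FA, -0.12 to 0.19 for TAPBP in U937 without FA, -0.086 to 0.076 for the FA difference of TAPBP and -0.12 to 0.021 for that of HLA-E in IMS-M2, and -0.013 to 0.15 for that of HLA-B in U937. The line difference ranged from -0.13 to 0.080 for TAP2 and from -0.034 to 0.21 for HLA-C with FA, and from -0.086 to 0.17 for HLA-C without FA. The cause of these changes was not tested.

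The replicate numbers were checked as a pairing. Deviations of same-numbered OTX and DMSO libraries correlated at 0.05, 0.28 and 0.07 in IMS-M2 with FA and 0.07, 0.21 and 0.19 in IMS-M2 without FA. In U937 with FA they correlated at -0.33, 0.13 and -0.24. In IMS-M2 every OTX library but replicate 1 with FA correlated best with its own number, so a pairing is possible there. In U937 with FA replicates 1 and 3 correlated negatively with their own number. The labels give only a number and do not say that libraries were paired, and the main fits left them unpaired. With the block the FA differences of B2M (adjusted p = 0.0395) and HLA-B (0.0352) in IMS-M2 and NLRC5 in IMS-M2 without FA (0.0408) were called, and NLRC5 in U937 with FA (0.0634) and the line differences with FA of HLA-E (0.0698) and B2M (0.0892) were not. U937 without FA has no numbers to block on.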
